A study of Mus musculus with 20 samples.

Results

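The PYHIN genes are a cluster on mouse chromosome 1 that includes the Ifi200 family and Aim2. Of 6 listed members, Ifi203, Ifi204, Ifi205, Ifi207, Ifi213 and Aim2, 5 had a probe set of their own among the 19938 genes measured, and Ifi204 had none. The list was picked on the difference between the IFNbeta and p19Arf vectors, in which Ifi207 and Ifi213 stood out, so values of that comparison are given as a description with no test. The other comparisons, apart from p19Arf+IFNbeta against eGFP, reuse the IFNbeta or the p19Arf arrays. On these arrays the listed genes were picked as high or low. No p of its own is therefore given there for Ifi207 or Ifi213, and both enter only counts of members. Since the choice can affect these counts, they are no test of the members and nothing is read there from them. A further 5 genes of the family that are not on the list, Ifi202b, Ifi206, Ifi208, Ifi209 and Ifi214, were measured and are described beside the members.

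The arrays held RNA of LLC-1 tumors, a Lewis lung carcinoma cell line implanted in C57Bl/6 mice. All 4 groups received an adenoviral vector into the tumor, 25 µl of buffered saline per injection, 5 times at 48 h intervals, at a load whose log10 in infectious units was 8. As control the vector coded for the fluorescent protein eGFP, and the other groups received IFNbeta, a type I interferon, p19Arf, a tumor suppressor protein that acts on p53, or both (p19Arf+IFNbeta, called the combination here), with 5 arrays in each group. Viral DNA was thus given in all groups, and the sources used here do not name the promoters of the vectors. The labels do not say that the 5 arrays of a group came from separate mice, so p-values measure the spread between these samples, which may be technical.

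Many PYHIN proteins, though not all, pair a pyrin domain, which binds other pyrin domains, with HIN domains, which bind DNA. AIM2 binds double-stranded DNA in the cytosol and assembles with the adaptor ASC into an inflammasome that activates caspase-1. Several Ifi200 genes are induced by type I interferon, and IFI204 is known as a sensor of cytosolic DNA that signals through STING. The family is best known from macrophages and other leukocytes, and a tumor in a mouse can hold tumor, immune and stromal cells. In such bulk samples, fewer cells of a type and less RNA per cell cannot be told apart.

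Factors activated by interferon are known to bind near the start of the genes they induce, so the windows from RefSeq (assembly GRCm38.p6, 250 bases before to 50 bases after each annotated start, 300 bases in all, 5′ to 3′ on the gene's strand) are shown first. Capitals mark the letters GAAANNGAAA, the core of the interferon-stimulated response element, which was searched on both strands (TTTCNNTTTC on the other) and was chosen after the windows had been seen. The windows of Ifi213 (chr1:173599223-173599522, minus strand) and Ifi207 (chr1:173741760-173742059, minus strand) are given for the genes the list was picked on. The window of Aim2 (chr1:173420354-173420653, plus strand) is shown beside them and holds no match. It lies inside the annotated range of Aim2, which begins at base 173349547, so other starts of the gene may not be covered.
Ifi213: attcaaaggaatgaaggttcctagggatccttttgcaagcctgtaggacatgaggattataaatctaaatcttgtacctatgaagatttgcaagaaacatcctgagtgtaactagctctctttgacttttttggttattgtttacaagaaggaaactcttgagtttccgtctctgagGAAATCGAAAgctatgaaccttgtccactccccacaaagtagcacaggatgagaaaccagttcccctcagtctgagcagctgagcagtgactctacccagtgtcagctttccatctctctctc
Ifi207: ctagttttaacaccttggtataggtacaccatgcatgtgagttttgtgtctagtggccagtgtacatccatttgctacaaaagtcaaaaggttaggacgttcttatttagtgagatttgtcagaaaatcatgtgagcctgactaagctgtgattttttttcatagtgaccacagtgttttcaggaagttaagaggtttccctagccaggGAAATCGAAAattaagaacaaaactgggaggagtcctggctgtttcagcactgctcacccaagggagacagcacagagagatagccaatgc
Aim2: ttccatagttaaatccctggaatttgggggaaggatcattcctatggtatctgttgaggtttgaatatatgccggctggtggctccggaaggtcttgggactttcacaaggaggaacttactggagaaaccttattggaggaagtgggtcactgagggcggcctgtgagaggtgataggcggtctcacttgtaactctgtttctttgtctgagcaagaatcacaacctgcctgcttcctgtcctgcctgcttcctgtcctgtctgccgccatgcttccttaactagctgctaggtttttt

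The motif stood in 9 of the 12 family genes that had a window, against 3.99% of 27025 genes. Its shorter form AAANNGAAA (TTTCNNTTT on the other strand), which is contained in the longer one, stood in 10 of the 12 and in 12.1% of all genes. The match began 73 bases before the annotated start in Ifi213, 41 in Ifi207, 35 in Ifi203 and 134 in Ifi205, whose window held a second match, on the other strand, after the start. The windows of Aim2 and Ifi202b held neither form. Ifi204 and Ifi203-ps had no entry. A match is a description of letters, not a site shown to be used.

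Stretches of 50 bases around the match show how alike the family's starts are. They are those of Ifi203 (chr1:173942498.0-173942547.0, minus strand), Ifi205 (chr1:174031860.0-174031909.0, minus strand), Ifi207 (chr1:173741821.0-173741870.0, minus strand), Ifi206 (chr1:173491329.0-173491378.0, minus strand). The others are those of Ifi214 (chr1:173536007.0-173536056.0, minus strand), Ifi213 (chr1:173599316.0-173599365.0, minus strand), Ifi209 (chr1:173630760.0-173630809.0, plus strand) and Ifi208 (chr1:173673587.0-173673636.0, plus strand). Capitals mark the motif, in Ifi209 its shorter form. Between Ifi213 and Ifi208 the stretch differed at 0 of 50 positions, and between Ifi213 and Ifi206 at 1. Ifi205 and Ifi207 differed at 6, while Ifi207 and Ifi213 differed at 25. The longest run shared by the windows of Ifi206 and Ifi208 was 182 bases, and the window of Ifi213 shared runs of 135 bases with each of them. Genes this alike can share probe sequence, so the value of one may hold signal of another.
Ifi203: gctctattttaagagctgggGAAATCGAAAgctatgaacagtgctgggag
Ifi205: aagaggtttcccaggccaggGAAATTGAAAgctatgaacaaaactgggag
Ifi207: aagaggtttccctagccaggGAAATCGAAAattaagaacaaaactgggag
Ifi206: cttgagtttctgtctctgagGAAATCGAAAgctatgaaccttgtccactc
Ifi214: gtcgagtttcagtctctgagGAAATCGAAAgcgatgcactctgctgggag
Ifi213: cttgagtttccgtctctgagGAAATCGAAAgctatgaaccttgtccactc
Ifi209: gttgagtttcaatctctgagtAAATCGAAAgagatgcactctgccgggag
Ifi208: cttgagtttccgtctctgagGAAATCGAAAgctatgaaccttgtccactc

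The deposited table held log2 values from 2.33 to 14.69 with array medians from 7.49 to 7.61. Differences below are on the log2 scale, from limma with 1 mean per group over all 20 arrays, and a gene passed at a Benjamini-Hochberg adjusted p under 0.05. No gene of 19938 passed in 6 of the 7 comparisons, a share of 0.0%. The exception was IFNbeta against p19Arf, where 5 genes passed, or 0.0251% of those tested. The counts of 0 depended on single arrays: without eGFP replicate 1, 84 genes passed in the combination against eGFP, and without IFNbeta replicate 3, 2351 passed in the combination against IFNbeta, none of them a member. With array weights 166 and 1730 genes passed in these comparisons. The genes carried by the vectors did not separate the groups on these arrays. The log2 value of Ifnb1 ranged from 6.03 to 6.65 with the IFNbeta vector and from 5.96 to 6.25 with eGFP, and that of Cdkn2a, the gene of p19Arf, from 7.35 to 7.81 with p19Arf and from 7.36 to 7.54 with eGFP. Of the IFNbeta arrays, replicate 3 stood apart, with a mean over 8 skin epidermis markers of 8.95 against 6.40 to 6.59 on the others and an interferon list score of 10.40 against 9.70 to 9.93. The mean over 9 lung carcinoma and epithelial markers ranged from 7.70 to 8.07 over all arrays, and with no detection calls their presence cannot be read from it. Macrophage and monocyte markers were measured for 18 of 20 written, and their mean log2 value ranged from 10.15 to 10.52 with eGFP, 10.07 to 10.51 with IFNbeta, 9.86 to 10.43 with p19Arf and 9.79 to 10.50 with the combination.

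Ifi213 had the widest range of the members, from 7.28 to 9.39 over the 20 arrays. Its log2 values with eGFP were 8.07, 8.23, 8.21, 8.18 and 7.81, and with IFNbeta 8.72, 8.49, 9.39, 8.56 and 8.92. With p19Arf they were 8.21, 7.58, 8.10, 7.66 and 7.28, and with the combination 8.50, 8.52, 8.48, 7.89 and 7.84. All 5 IFNbeta arrays lay above all eGFP and all p19Arf arrays, and the combination split into 3 arrays near 8.50 and 2 near the lower eGFP value. The means were 8.82 ± 0.36 (SD, n = 5) with IFNbeta, 8.25 ± 0.35 with the combination, 8.10 ± 0.17 with eGFP and 7.77 ± 0.39 with p19Arf.

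**Figure D1:**
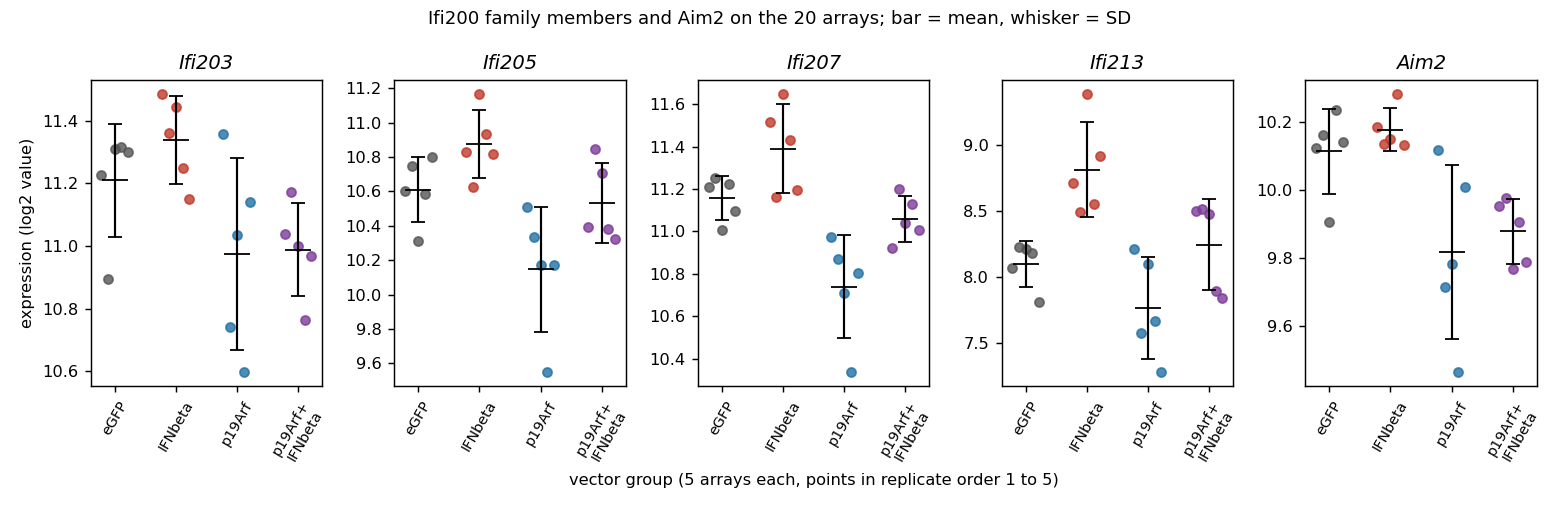
Log2 expression of Ifi203, Ifi205, Ifi207, Ifi213 and Aim2 (vertical axes, each with its own scale) in the 4 vector groups, 1 point for each of 5 arrays, with the mean as a bar and the SD as a whisker. The IFNbeta arrays of Ifi213, between 8.49 and 9.39, all lie above its eGFP arrays, and the p19Arf arrays of Ifi207, between 10.34 and 10.97, all lie below its eGFP arrays.

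Ifi207, a family member with a long repeat region beside its pyrin and HIN domains, was separated from the control in the other direction, on the p19Arf arrays. Its log2 values were 11.21, 11.25, 11.01, 11.22 and 11.10 with eGFP and 11.51, 11.16, 11.65, 11.43 and 11.20 with IFNbeta. They were 10.97, 10.87, 10.71, 10.34 and 10.80 with p19Arf and 10.92, 11.20, 11.04, 11.13 and 11.005 with the combination. All 5 p19Arf arrays lay below all eGFP and all IFNbeta arrays, while the combination overlapped with eGFP. The group means were 11.39 ± 0.21 (SD, n = 5) with IFNbeta, 11.16 ± 0.10 with eGFP, 11.06 ± 0.11 with the combination and 10.74 ± 0.24 with p19Arf.

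Ifi205 had the same order of group means as Ifi207. Its mean log2 value was 10.87 ± 0.20 (SD, n = 5) with IFNbeta, 10.61 ± 0.19 with eGFP, 10.53 ± 0.23 with the combination and 10.15 ± 0.36 with p19Arf. The lowest p19Arf array, replicate 4, was at 9.55 and the other p19Arf arrays lay between 10.17 and 10.51. Neighbouring groups in this order overlapped.

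Ifi203 and Aim2 split the groups in another way, with IFNbeta close to eGFP and the combination close to p19Arf. Ifi203 had means of 11.34 ± 0.14 (SD, n = 5) with IFNbeta, 11.21 ± 0.18 with eGFP, 10.99 ± 0.15 with the combination and 10.97 ± 0.31 with p19Arf. Aim2, the inflammasome sensor, was at 10.12, 10.16, 9.90, 10.24 and 10.14 with eGFP and at 10.19, 10.14, 10.15, 10.28 and 10.13 with IFNbeta. It was at 10.12, 9.71, 9.78, 9.46 and 10.01 with p19Arf and at 9.95, 9.98, 9.77, 9.90 and 9.79 with the combination. Every combination array of Aim2 lay below every IFNbeta array, and the p19Arf arrays overlapped with eGFP and with the combination but lay below every IFNbeta array. The means of Aim2 were 10.18 ± 0.06 with IFNbeta, 10.11 ± 0.13 with eGFP, 9.88 ± 0.10 with the combination and 9.82 ± 0.26 with p19Arf.

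Ifi204 could not be given a level of its own, because its one probe set is paired with both Ifi211 and Ifi204. That shared probe set had mean log2 values of 11.36 ± 0.16 (SD, n = 5) with IFNbeta, 11.20 ± 0.11 with eGFP, 11.03 ± 0.19 with the combination and 10.93 ± 0.23 with p19Arf. The order is that of Ifi203, Ifi205, Ifi207 and Aim2. It is assigned to neither gene.

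The combination against eGFP asks what both genes together did relative to the control vector, and it is the one comparison of 2 groups that shares no array with IFNbeta against p19Arf. No member passed. Aim2 was 0.24 lower (SE 0.10, 95% interval from -0.45 to -0.02, adjusted p = 0.253 by limma), with unadjusted p of 0.0304 by limma and 0.0317 in an exact 2-sided permutation test. After quantile normalization Aim2 differed by -0.11 and Ifi203 by -0.03. Ifi203 was 0.22 lower (adjusted p = 0.353), and Ifi205 and Ifi207 differed by -0.08 and -0.10 (adjusted p = 0.811 and 0.671 by limma), both with the sign turned under quantile normalization, to 0.075 and 0.079. Ifi213 differed by 0.15 (95% interval from -0.24 to 0.53, adjusted p = 0.707). The exact permutation test gave p = 0.0794 for Ifi203, 0.563 for Ifi205, 0.19 for Ifi207 and 0.389 for Ifi213. At an unadjusted p under 0.05, 1 of 5 members (Aim2, lower) stood beside 17.6% of all genes. The arrays of both groups overlapped for all 5 members. Over all genes, 0.547% were lower with no overlap and 0.782% higher with no overlap. Macrophage markers were lower in the mean for 10 of 18 genes in this comparison and skeletal muscle markers higher for 10 of 10, with muscle scores of 7.35 to 9.09 against 7.24 to 7.96. Their part in the result was not tested.

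IFNbeta against eGFP asks what the interferon vector did alone, and it shares the IFNbeta arrays with the comparison the list was picked on. All 5 members had a higher mean with IFNbeta, and none passed. Ifi213 was 0.72 higher (1.64-fold, SE 0.19), with all 5 arrays above all eGFP arrays. Without IFNbeta replicate 3 it was 0.57 higher. Ifi205, Ifi207, Ifi203 and Aim2 were 0.27, 0.23, 0.13 and 0.06 higher. Of the members, 1 of 5 reached an unadjusted p under 0.05, as did 2.79% of all genes, and 1 of 5 was higher with no overlap, as were 0.552% of all genes. The members' median difference was 0.23 and that of all genes -0.02. Nothing is read from this median or from the count, since the list was picked on the IFNbeta arrays. Skeletal muscle markers had higher means with IFNbeta than with eGFP for 10 of 10 genes, with scores of 7.26 to 9.50 against 7.24 to 7.96, and their part in the result was not tested.

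**Figure D2:**
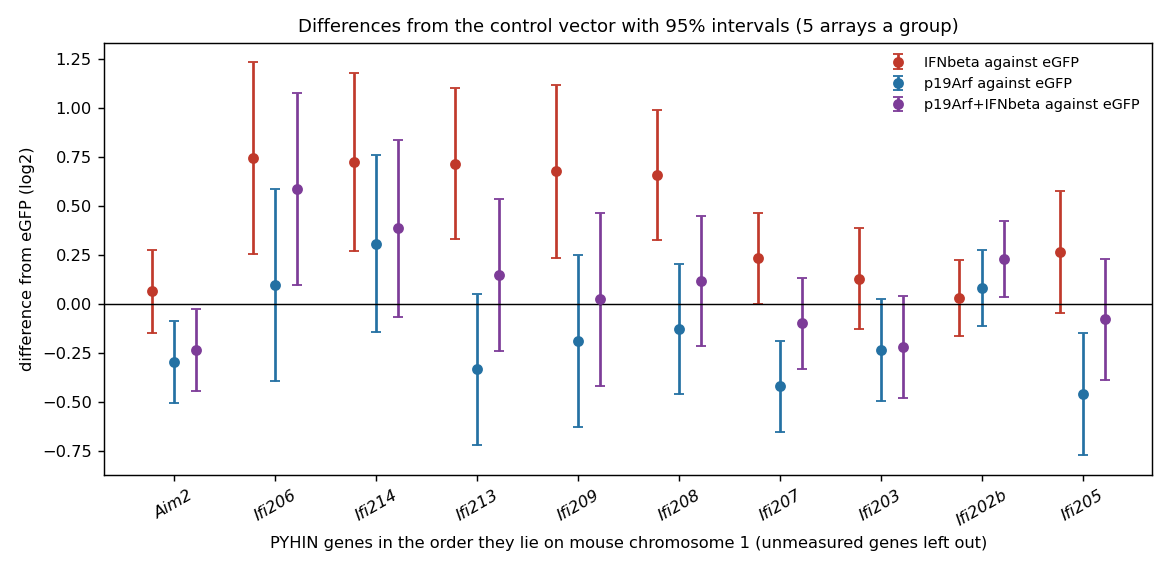
Difference from eGFP (vertical axis, log2) with its 95% interval for the IFNbeta, p19Arf and combination vectors, for the 10 measured PYHIN genes in their order along mouse chromosome 1. The IFNbeta differences of the adjacent genes Ifi206, Ifi214, Ifi213, Ifi209 and Ifi208 lie between 0.66 and 0.74, and those of Aim2, Ifi207, Ifi203, Ifi202b and Ifi205 between 0.03 and 0.27.

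p19Arf against eGFP asks what the p19Arf vector did alone, shares the p19Arf arrays with the comparison the list was picked on and shares the eGFP arrays with the comparisons above. All 5 members had a lower mean with p19Arf, and none passed. Ifi207 was 0.42 lower (SE 0.11), with all 5 arrays below all eGFP arrays. Ifi205 was 0.46 lower, Ifi213 0.33, Aim2 0.30 and Ifi203 0.24 lower, each with overlap. An unadjusted p under 0.05 was reached by 3 of 5 members and 7.25% of all genes, and 1 of 5 members was lower with no overlap, against 0.441% of all genes. Macrophage markers were lower in the mean with p19Arf for 16 of 18 genes. Skeletal muscle markers were higher for 10 of 10 genes, with scores of 7.28 to 9.025 against 7.24 to 7.96. The part of both marker sets in the result was not tested. With the macrophage score as a covariate the differences of Ifi207, Ifi205, Ifi213, Aim2 and Ifi203 were -0.43, -0.44, -0.25, -0.26 and -0.19. After quantile normalization they were -0.28, -0.34, -0.36, -0.20 and -0.11. Without p19Arf replicate 4, the lowest array of Ifi207, its difference was -0.32. Ifi203 differed by -0.03 without the 5 arrays of lowest spread.

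The combination against IFNbeta reuses the IFNbeta arrays on which members were picked as high, which favours a lower value in the combination. All 5 members had lower means with the combination, and none passed. The combination was lower than IFNbeta by 0.57 for Ifi213, 0.35 for Ifi203, 0.34 for Ifi205, 0.33 for Ifi207 and 0.30 for Aim2. After quantile normalization the differences were -0.54, -0.17, -0.17, -0.15 and -0.14, and without the 5 arrays of lowest spread those of Ifi213 and Ifi205 were -0.17 and -0.15. Macrophage markers were lower in the mean for 14 of 18 genes in this comparison, and their part in the result was not tested. All 5 members reached an unadjusted p under 0.05, where 25.8% of all genes did, and Aim2 alone of the 5 was lower with no overlap, where 0.782% of all genes were. Nothing is read from these counts. With array weights 1 of 5 members passed, Aim2 (difference -0.31, adjusted p = 0.0491 by limma), as did 1730 of 19938 genes. Nothing is read from this pass, since the comparison reuses the IFNbeta arrays the list was picked on. Without IFNbeta replicate 3 no member passed, Ifi213 differed by -0.42 and Aim2 came nearest at an adjusted p of 0.0655 by limma.

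The combination against p19Arf reuses the p19Arf arrays on which members were picked as low, which favours a higher value in the combination. The differences were 0.48 for Ifi213, 0.38 for Ifi205 and 0.32 for Ifi207, and 0.06 for Aim2 and 0.01 for Ifi203, both negative without p19Arf replicate 4 (-0.03 and -0.08). None passed. Of the members, 3 of 5 reached an unadjusted p under 0.05, as did 3.07% of all genes. No member was higher with no overlap, against 0.16% of all genes. Nothing is read from these counts. Whether the joint effect departs from the sum of both single vectors on the log2 scale was tested by the interaction. Its value was from -0.24 for Ifi213 to 0.12 for Ifi205, and none passed. It was -0.09 for Ifi213 without IFNbeta replicate 3 and -0.03 for Ifi205 without p19Arf replicate 4. At an unadjusted p under 0.05 stood 0 of 5 members and 1.3% of all genes.

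In IFNbeta against p19Arf, the comparison that chose the list, Ifi213 differed by 1.05 (2.07-fold) and Ifi207 by 0.65, and both were among the 5 genes that passed, beside Ifit3b, Ms4a4d and Phf11d. Of the members that did not pass, Ifi205 differed by 0.73 and Ifi203 and Aim2 each by 0.36. The arrays did not overlap for 4 of 5 members, with all IFNbeta arrays above all p19Arf arrays, as for 0.757% of all genes. Nothing is read from these counts, since they chose the members. The count of 5 genes rests on the setting: leaving out 1 array gave 0 to 28, it was 0 after quantile normalization, 0 with array spread as a covariate, 0 with only the 2 groups in the fit and 4495 with array weights. It was 0 without IFNbeta replicate 4 or without p19Arf replicate 2, 3, 4 or 5, 1 without IFNbeta replicate 1, 2 without IFNbeta replicate 3, 3 without IFNbeta replicate 5 and 28 without p19Arf replicate 1. Without IFNbeta replicate 3 the differences of Ifi213 and Ifi207 were 0.91 and 0.59.

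The 5 family genes that are not on the list gave values that the choice did not use directly. Ifi206, Ifi208, Ifi209 and Ifi214 differed between IFNbeta and eGFP by 0.74, 0.66, 0.68 and 0.72, about as much as Ifi213, and none passed (adjusted p = 1 by limma). All 5 IFNbeta arrays lay above all eGFP arrays for Ifi208, Ifi209 and Ifi214, as for 0.552% of all genes. These are the IFNbeta arrays the list was picked on, so nothing is read from this count. For Ifi206, IFNbeta replicate 3 was at 9.45 and the other IFNbeta arrays between 7.86 and 8.25, and without it the difference was 0.47. Without the same array the differences of Ifi208, Ifi209 and Ifi214 were 0.54, 0.58 and 0.60. Ifi202b was listed between 4.21 and 4.79 on all arrays, near the low end of the table, and differed by 0.03.

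**Figure D3:**
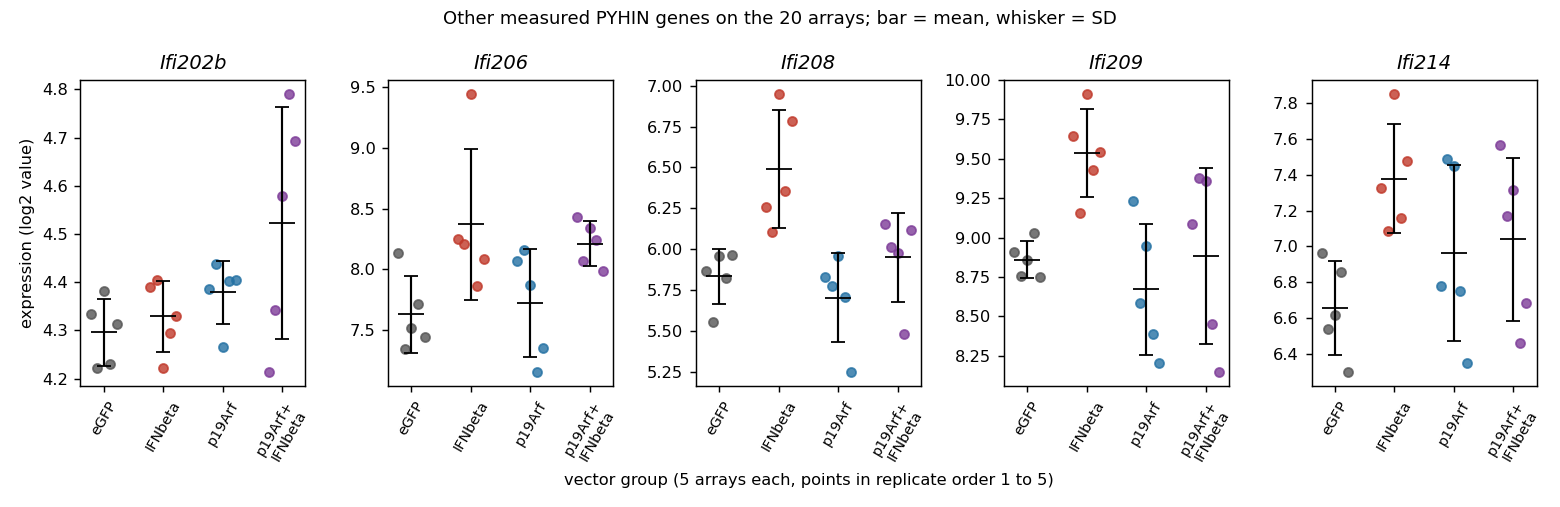
Log2 expression of Ifi202b, Ifi206, Ifi208, Ifi209 and Ifi214 (vertical axes, each with its own scale) in the 4 vector groups, 1 point for each of 5 arrays, with the mean as a bar and the SD as a whisker. IFNbeta replicate 3 is the highest array of Ifi206 at 9.45, of Ifi208 at 6.95, of Ifi209 at 9.91 and of Ifi214 at 7.85.

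In the combination against eGFP these genes had a higher mean in all 5 cases, and none passed. The differences were 0.58 for Ifi206 (1.5-fold, adjusted p = 0.239 by limma), 0.39 for Ifi214, 0.23 for Ifi202b, 0.12 for Ifi208 and 0.02 for Ifi209. The sign for Ifi209 turned with the setting: it was -0.01 after median centring, from -0.10 (without combination replicate 2) to 0.21 (without combination replicate 5) when 1 array was left out, and 0.41 without the 5 arrays of lowest spread. In p19Arf against eGFP, 3 of the 5 were higher and 2 lower in the mean, from -0.19 for Ifi209 to 0.31 for Ifi214, with Ifi202b at -0.02 under quantile normalization in place of 0.08 and Ifi206 at -0.02 without p19Arf replicate 2 in place of 0.09. The interaction of Ifi214 was -0.65 (unadjusted p = 0.0482, adjusted p = 1 by limma), the lowest of the 10 genes. It was -0.11 without the 5 arrays of lowest spread.

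Along chromosome 1 the genes lie in the order Aim2, Ifi206, Ifi214, Ifi213, Ifi209, Ifi208, Ifi207, Ifi204, Ifi203-ps, Mndal, Ifi211, Ifi203, Ifi202b and Ifi205, from RefSeq. The 5 adjacent genes Ifi206 to Ifi208 had pairwise Pearson r from 0.63 to 0.92 over the 20 arrays. Ifi203, Ifi205, Ifi207 and Aim2, which lie outside that stretch, had r from 0.65 to 0.93 among themselves, and pairs across both sets had r from 0.01 to 0.75 with a median of 0.54. This grouping was made after the values were seen and carries no test. Arrays share group, spread and any probe sequence in common, and all of these enter r.

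Inside the groups, where each array was set against its group's mean and values were permuted only within a group, 45 pairs were tested. Ifi213 and Ifi209 had r = 0.88 (permutation p = 3e-05, adjusted p = 0.00135 over the 45 pairs, rho = 0.70 with adjusted p = 0.0462, r = 0.88 without the 2 farthest arrays). Ifi205 and Ifi207 had r = 0.82 (permutation p = 0.00026, adjusted p = 0.00585, rho = 0.65 with adjusted p = 0.0681, r = 0.68 without the 2 farthest arrays). Ifi213 and Aim2 had r = 0.10 (permutation adjusted p = 0.773), and Ifi213 and Ifi207 r = 0.29 (permutation adjusted p = 0.423). Inside groups, r of Ifi213 with its neighbours Ifi208 and Ifi214 was 0.65 and 0.69 (permutation adjusted p = 0.0453 for both). By rank these 2 were no longer under the threshold, with rho = 0.30 and 0.47 (permutation adjusted p = 0.459 and 0.19), and without the 2 farthest arrays r was 0.47 and 0.58. Its r with Ifi206 was 0.57 (permutation adjusted p = 0.0898). With the other members it ranged from 0.10 to 0.43, and the difference between these r values was not tested. Also under the threshold were Ifi214 with Ifi206 (r = 0.65) and with Ifi208 (r = 0.66), both at permutation adjusted p = 0.0269. Ifi207 with Aim2 (r = 0.65) and Ifi213 with Ifi202b (r = -0.61) both had permutation adjusted p = 0.0453. Of these, only Ifi206 with Ifi214 stayed under it by rank (rho = 0.725, permutation adjusted p = 0.0462). The values of Ifi202b lay near the low end of the table.

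**Figure D4:**
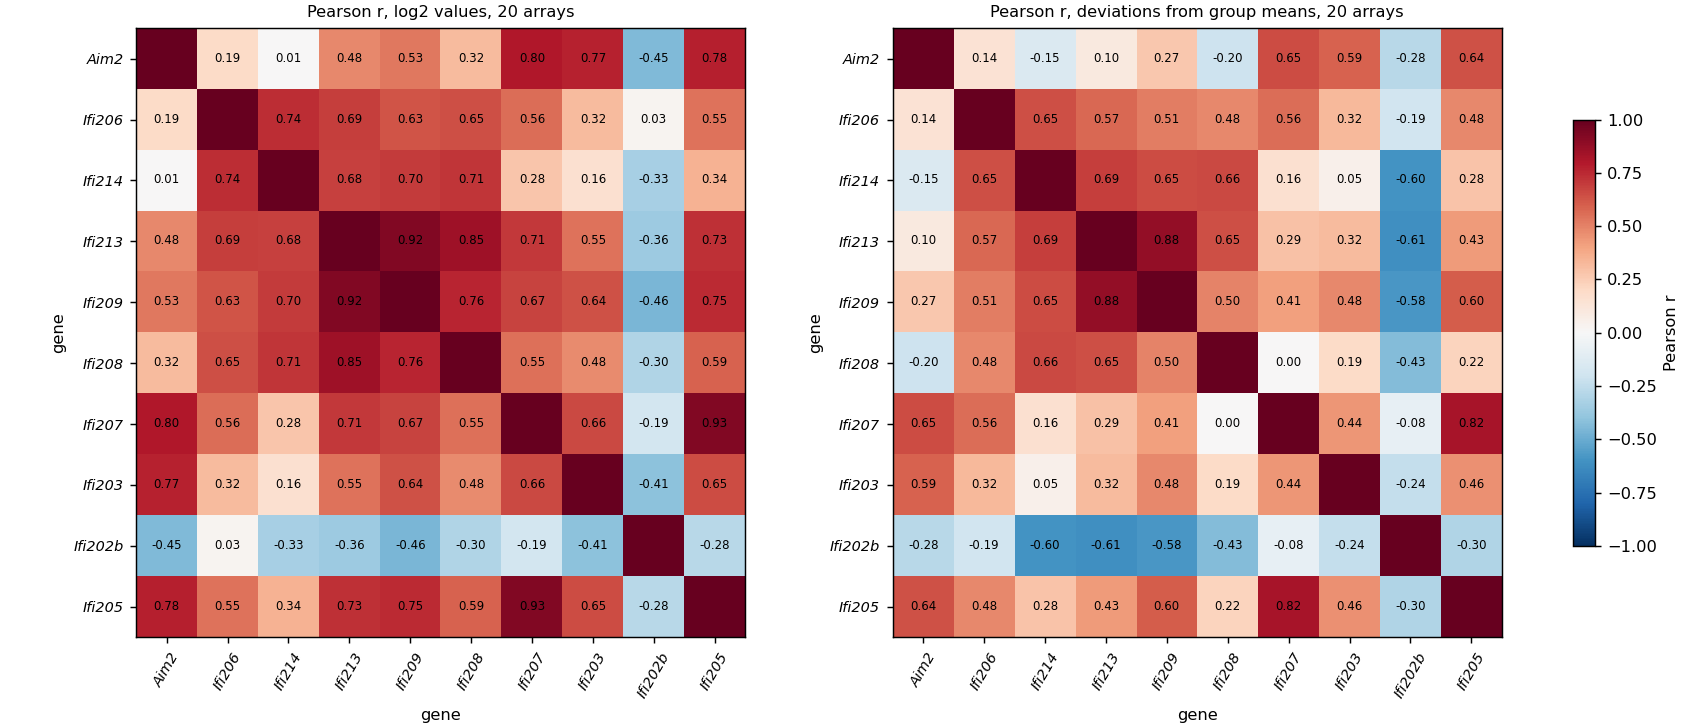
Pearson r between the 10 measured PYHIN genes over 20 arrays, in their order along chromosome 1, for log2 values (left) and for deviations from group means (right), with colour from -1 in blue to 1 in red. Ifi213 and Ifi209 reach 0.92 on the left and 0.88 on the right, and Ifi205 and Ifi207 reach 0.93 and 0.82.

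The genes most like each member by Pearson r over the 20 arrays, outside the family and predicted genes, are given with no p. A second value in brackets is r inside groups. The arrays include those the list was picked on, which can raise the first r. Phf11d and Ifit3b both passed in IFNbeta against p19Arf. For Ifi213 they were Ms4a4c (0.91, 0.80), Phf11d (0.89, 0.71) and Slfn8 (0.89, 0.76). For Ifi207 they were Casp8, the initiator caspase of death receptor signalling (0.89, 0.76), Ifit3b (0.85, 0.73) and Slfn10-ps (0.83, 0.745). Those of Ifi205 were Trim25, a ubiquitin ligase of RIG-I signalling (0.88, 0.78), Slfn10-ps (0.87, 0.79) and Znfx1 (0.86, 0.72). For Ifi203 they were Fubp1 (0.86, 0.85), Pds5a (0.85, 0.76) and Calu (0.85, 0.75). Those of Aim2 were Emcn, an endothelial sialomucin (0.91, 0.83), Nucb2 (0.89, 0.83) and Zfp942 (0.89, 0.87).

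A list of type I interferon response genes without PYHIN members had 29 of 33 measured, and its mean log2 value was set against each member. Over the 20 arrays r was 0.84 for Ifi213, 0.74 for Ifi205, 0.70 for Ifi207, 0.47 for Ifi203 and 0.39 for Aim2, given with no p because the arrays include those the list was picked on. Without the 2 arrays farthest from the median score r was 0.67 for Ifi213 and 0.69 for Ifi205. Inside groups r was 0.70 for Ifi213 (permutation adjusted p = 0.056 over 15 relations, rho = 0.28) and 0.65 for Ifi205 (permutation adjusted p = 0.056, rho = 0.50), so neither passed. For Aim2 it was 0.06 (permutation adjusted p = 0.83). Against the macrophage score, r inside groups was from -0.06 for Ifi207 to 0.39 for Ifi213, with permutation adjusted p from 0.265 to 0.83. Against the spread of an array, the SD of its log2 values, r over the 20 arrays was 0.69 for Aim2 and 0.62 for Ifi203 as deposited, and 0.17 and 0.07 after quantile normalization, which gives all arrays the same spread.

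**Figure D5:**
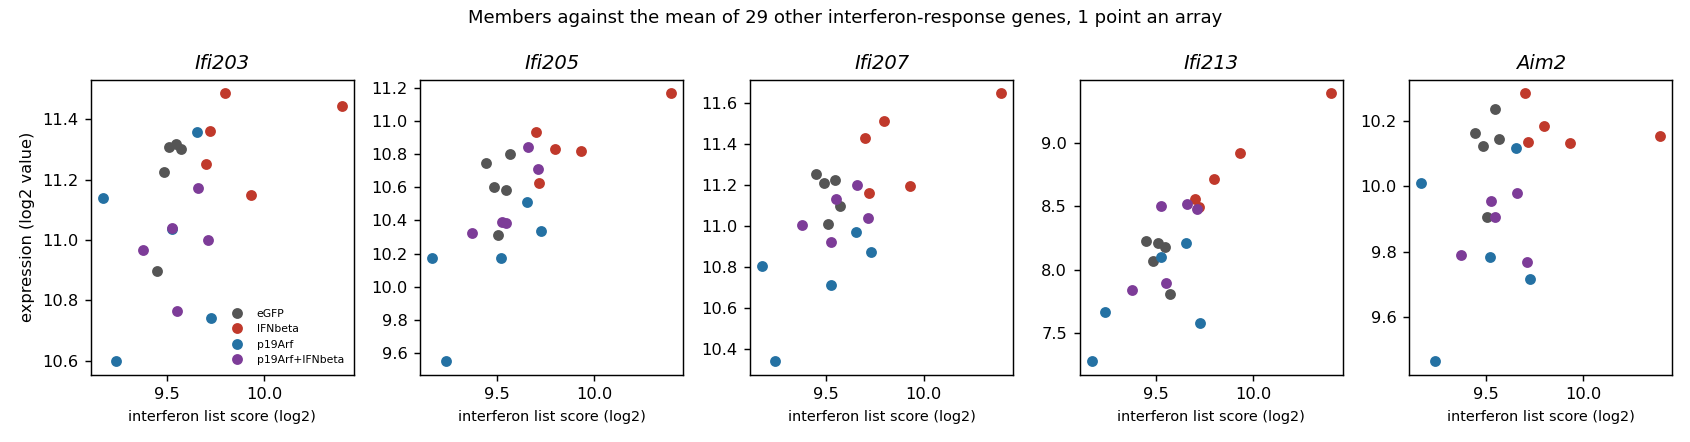
Log2 value of each member (vertical axis) against the mean log2 value of 29 other interferon-response genes on the same array (horizontal axis), 1 point for each of 20 arrays, coloured by vector. IFNbeta replicate 3, at a score of 10.40, is the rightmost point in every panel.

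The rest of the pathway was read from lists. The interferon list had a higher mean with IFNbeta than with eGFP for 29 of 29 genes, with a median difference of 0.38 and none past the threshold, and without IFNbeta replicate 3 the median was 0.28 with 29 of 29 higher. Oas2, an antiviral synthetase, was 0.60 higher, Usp18, which restrains interferon signalling, 0.59, and Mx1, an antiviral GTPase, 0.59 (adjusted p = 1 for each by limma). Without IFNbeta replicate 3 these differences were 0.37, 0.46 and 0.33. In the combination against eGFP 16 of 29 were higher in the mean, with a median of 0.05.

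Of 12 genes of cytosolic DNA sensing, 0 passed in the combination against eGFP, and 9 were higher and 3 lower in the mean, with a median difference of 0.13. Zbp1, a sensor of Z-form nucleic acid, differed by 0.34 with all 5 combination arrays above all eGFP arrays (adjusted p = 0.259 by limma), and the kinase gene Ikbke by 0.39. In all, 3 of the 12 genes were higher with no overlap, against 0.782% of all genes. Sting1, the adaptor downstream of cGAS and IFI204, differed by -0.17 and Ddx41 by -0.05. In IFNbeta against eGFP 11 of 12 were higher in the mean and 0 passed, led by Zbp1 at 0.38 and Samhd1 at 0.21, with Cgas at -0.04 and Trex1, the exonuclease that degrades cytosolic DNA, at 0.01. Without IFNbeta replicate 3, 9 of 12 were higher, Zbp1 differed by 0.25 and Trex1 by -0.06.

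A list of 12 inflammasome and pyroptosis genes was written around AIM2 and also holds Nlrp3, Nlrc4 and Nlrp1b, sensors of other inflammasomes. Of these 12, 0 passed in the combination against eGFP, and 8 were higher and 4 lower in the mean. Il1b, the cytokine cleaved by caspase-1, had a mean log2 value of 11.35 ± 0.67 (SD, n = 5) with the combination and 10.38 ± 0.40 with eGFP, a difference of 0.97 (SE 0.24, adjusted p = 0.234 by limma). Nlrp1b, another inflammasome sensor, differed by 0.58, Casp1 by -0.31 and Ninj1, which ruptures the membrane of dying cells, by -0.16. In IFNbeta against eGFP 10 of 12 were higher in the mean and 0 passed, from -0.02 for Gsdmd, the pore-forming effector, and -0.01 for Casp4 to 0.34 for Nlrp1b and 0.38 for Il1b. Without IFNbeta replicate 3 these were -0.10, 0.02, 0.27 and 0.32. Neutrophils also express Il1b, and their markers had a higher mean with the combination than with eGFP for 8 of 10 genes, with scores of 7.72 to 8.22 against 7.58 to 7.91, and their part in the result was not tested.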

How the data were processed

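Tumor RNA on 20 arrays, in 4 groups of 5, was compared from 1 table of 35556 probe sets. Its deposited values were taken as log2 from their range, since no header gives the base. The submitters' processing notes name GCOS and Affymetrix Expression Console. The sources used here do not give the authors' summarisation, background correction or normalization, and none was added. Gene names came from the platform annotation (21789 with 1 symbol, 1621 with several, 12146 not listed), with symbols updated to GRCm38.p6 and the probe set of highest mean kept per gene. No filter on low values was set, and the table has no detection calls. Groups come from the labels. limma 3.58.1 in R 4.3.3 (residual degrees of freedom 16, eBayes prior 6.06) was fitted to all arrays and tested on simulated data, with 2-sided tests and adjustment within each comparison. An exact permutation test compared 5 arrays with 5 for each measured PYHIN gene, in each comparison of 2 groups except IFNbeta against p19Arf. Its p is given for the members in the combination against eGFP. Correlations used 100000 permutations, and those inside groups were added after the values were seen. The members and gene lists were chosen with earlier results of these data known. Named genes were all measured PYHIN genes, the extremes of the pathway lists in both comparisons with eGFP that involve IFNbeta, the 3 highest interferon genes and the 3 genes most like each member. Alternatives were scaling, a filter, array weights, covariates, a replicate block, other fits and leaving out arrays. The number of arrays limits the precision.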

Additional observations from a re-analysis of the deposited data

Results flagged for a closer look

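Among 92 sets of 5 arrays examined for a value far from the rest by Dixon's criterion, 8 had one, and chance gives about 1 in 20. Ifi203 was at 10.90 on eGFP replicate 2 and between 11.22 and 11.32 on the other eGFP arrays. Ifi206 was at 9.45 on IFNbeta replicate 3 and between 7.86 and 8.25 on the others. Ifi208 was at 5.48 on combination replicate 4 and between 5.98 and 6.16 on the others. The skin epidermis score was 8.95 on IFNbeta replicate 3, against 6.40 to 6.59, and 7.28 on eGFP replicate 5, against 6.53 to 6.71. The B cell score was 7.33 on eGFP replicate 4, against 6.63 to 6.74, and 7.89 on p19Arf replicate 3, against 6.48 to 6.88. The spread of log2 values was 2.04 on IFNbeta replicate 3, against 2.12 to 2.15 on the other IFNbeta arrays.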

How the results depend on the processing

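Under the 21 alternatives run for each, no member's difference in IFNbeta against eGFP, p19Arf against eGFP or the combination against IFNbeta turned its direction. In these, 1 member passed, Aim2 in the combination against IFNbeta with array weights (-0.309, adjusted p = 0.0491 by limma). There 1730 of 19938 genes passed, and nothing is read from the pass of Aim2, since the IFNbeta arrays chose the list. The cause of the changes below was not tested. In the combination against eGFP, Ifi205 turned to 0.075 (quantile normalization), 0.035 (array weights), 0.014 (spread as covariate) and 0.039 (without the 5 arrays of lowest spread), and Ifi207 to 0.079 (quantile). In the combination against p19Arf, Aim2 was -0.071 and Ifi203 -0.107 without the 5 arrays of lowest spread, and Ifi203 -0.034 with array weights. Leaving out 1 array gave -0.028 to 0.135 for Aim2 (negative without p19Arf replicate 4) and -0.08 to 0.11 for Ifi203 (negative without p19Arf replicate 2 or 4 or combination replicate 2). The interaction of Aim2 was 0.063 (quantile), 0.015 (spread) and 0.005 (macrophage score as covariate), and that of Ifi213 0.065 without the 5 arrays of lowest spread. Leaving out 1 array gave interactions of -0.092 to 0.071 for Aim2, -0.033 to 0.207 for Ifi205 and -0.012 to 0.153 for Ifi207, the last pair negative without p19Arf replicate 4, and -0.357 to -0.091 for Ifi213. After quantile normalization r with the macrophage score was -0.051, -0.056, -0.224 and -0.002 for Ifi203, Ifi205, Ifi207 and Aim2, and r with spread was -0.099 for Ifi207. Genes past the threshold numbered 166 (array weights), 3 (without the 5 arrays of lowest spread) and 0 to 84 (leaving out 1 array, 84 without eGFP replicate 1) in the combination against eGFP. They numbered 5 and 1 in IFNbeta against eGFP (array weights, without those 5 arrays). In the combination against IFNbeta they numbered 1 (median centring), 1 (filter on low values), 1730 (array weights) and 0 to 2351 (leaving out 1 array, 1 without combination replicate 2 and 2351 without IFNbeta replicate 3). For deviations from group means over all genes, same-numbered arrays of different groups had r from -0.624 to 0.657 (median -0.048). Differently numbered arrays of different groups had r from -0.705 to 0.763 (median 0.001). These values cannot show whether same-numbered samples were handled together. With the replicate block 0 genes passed in each of the 6 tested comparisons and 1, in place of 5, in IFNbeta against p19Arf. The arrays give no detection limit, so a low value such as that of Ifi202b has no bound.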
